A study of Mus musculus with 6 samples.

Results

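A set of 10 genes that mark the extraembryonic endoderm was followed across 6 Affymetrix arrays of the mouse embryonic stem cell line E14Tg2a. The genes were Gata4, Gata6, Sox7, Sox17, Foxa2, Hnf4a, Dab2, Afp, Cubn and Amn, and every probe set annotated to exactly 1 of these symbols was taken, which gave 26 of the 45101 probe sets on the array and 10 of 18193 genes. The cells were sampled at 96 h after transfection with 1 of 3 small interfering RNAs. The control group (2 arrays) received a duplex directed at firefly luciferase, and the other groups received Ncl siRNA #1 (2 arrays) or Ncl siRNA #2 (2 arrays), which target Ncl, the gene of the nucleolar protein nucleolin. All groups share the cell line and the time point, and no untransfected cells were among the samples used here.

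The extraembryonic endoderm is the lineage that forms the yolk sac lining. Its first cells, the primitive endoderm, separate from the epiblast inside the blastocyst when FGF4 from epiblast cells acts on FGF receptors and the transcription factor Gata6 gains over Nanog. Gata4, Sox17 and Sox7 follow Gata6. The descendants split into visceral endoderm, an absorptive and secretory epithelium marked by Hnf4a, Afp, Cubn, Amn and Dab2, and parietal endoderm, which lays down a thick basement membrane. Embryonic stem cells correspond to the epiblast and express these genes little, although their cultures can hold some primitive endoderm-like cells.

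Array values are log2 probe set values as deposited. For a test by gene, the probe set with the highest mean over all 6 arrays stood for the gene, and a gene was called higher or lower when its limma p, adjusted by Benjamini-Hochberg over 18193 genes, was under 0.05. All 10 genes had a mean signal below 6.94, the median over genes. No detection calls were used here, so weak expression and background cannot be told apart. Among the 26 probe sets, 6 read above the array median in all 6 arrays, 7 read below the lower quartile in all 6, and 13 lay between. The values ran from 2.88 to 7.48. The 2 arrays of a group differed by a median of 0.21 for these probe sets in the control group, 0.20 with siRNA #1 and 0.12 with siRNA #2, against 0.12, 0.16 and 0.09 over all probe sets. The labels do not say whether replicates came from different cultures. Each SE and p-value rests on the scatter of these arrays alone, which may be technical, and limma pools it over genes of similar signal. In the test by gene, the gene's own arrays gave 3 degrees of freedom and the trend over all genes 17.5. The SEs and intervals therefore mostly reflect other genes of that signal.

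The stem cell identity and the knockdown were checked first. All 10 embryonic stem cell markers (Pou5f1, Nanog, Sox2 and others) read above the array median in every array, although 7 were lower and 1 higher with siRNA #1, and 8 lower and 1 higher with siRNA #2. The brightest Ncl probe set stood at 14.21 in each control array and at 13.72 to 13.77 under the Ncl siRNAs. All 5 Ncl probe sets were lower with each siRNA, and the brightest fell least. The differences ran from -1.43 to -0.46 with siRNA #1 and from -1.57 to -0.46 with siRNA #2. The control arrays also held transcripts of lung. The mean over 14 lung genes was 7.90 and 8.00 in the controls and ran from 5.20 to 5.38 under the Ncl siRNAs, and 11 of the 14 were lower and 1 higher with each siRNA. Heart muscle genes averaged 5.86 and 6.13 in the control arrays and 5.09 to 5.15 in the others, and the 24 poly-A control probe sets, which read transcripts added as a labelling check, averaged 7.66 against 8.71 with siRNA #1 and 8.42 with siRNA #2. The comparison of siRNA #2 with siRNA #1 uses none of the control arrays, and in it 8 of the 10 stem cell markers were lower with siRNA #2 (median difference -0.21).

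Dab2 and Cubn, genes of endocytosis in visceral endoderm, were the members that fell with each Ncl siRNA. With siRNA #1, 1 further gene was called lower (Hnf4a) and 1 higher (Sox17), each on a probe set that is the brightest of its gene only through the groups where it reads high. In all, 4 of 10 members were called with siRNA #1, where 37.4% of all genes were called, and 2 of 10 with siRNA #2, where 39.5% were. Between the siRNAs, 1 of 10 was called, Cubn, against 8.48% of all genes. These shares are near or below the background and are no result about the members as a group. The count between the siRNAs was 4 without replicate 2 of siRNA #1 and 0 without replicate 1 of siRNA #1 or without either array of siRNA #2. In these bulk samples fewer cells of a type and less RNA per cell cannot be told apart. The median difference of the members was -0.12 with siRNA #1 and -0.17 with siRNA #2, beside -0.05 and -0.04 over all genes, and 0.02 beside -0.03 between the siRNAs. The 2 comparisons against control share the control arrays.

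**Figure D1:**
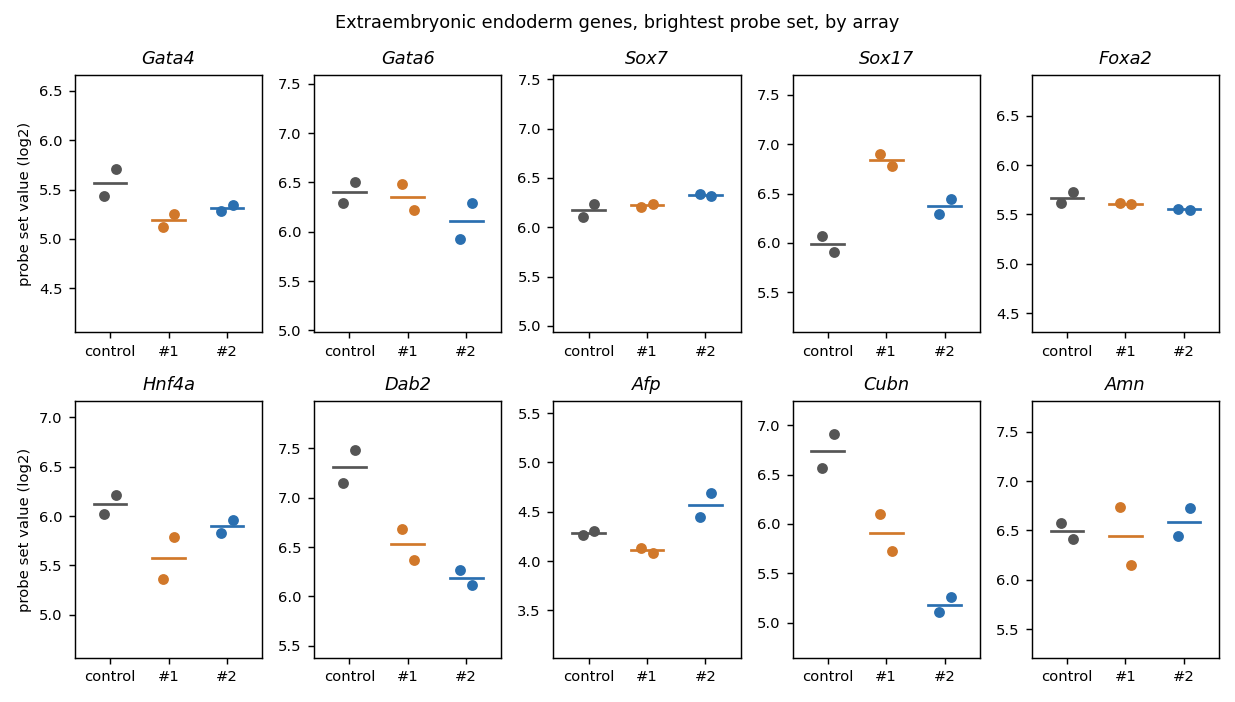
Log2 value of the brightest probe set of each of the 10 genes (vertical axis, 1 panel per gene, each with the same span) in the control, Ncl siRNA #1 and Ncl siRNA #2 arrays. Points are arrays and bars are group means (n = 2). Dab2 and Cubn step down from control to siRNA #1 to siRNA #2, Sox17 is highest with siRNA #1, and in the Gata6, Sox7, Foxa2 and Amn panels the means lie close together.

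The regulatory sequence upstream of Dab2 and Cubn is shown because they were the members lower with both siRNAs. The promoter table from RefSeq (GRCm38.p6) held 10 start sites for 6 of the 10 members, namely Foxa2, Hnf4a, Dab2, Afp, Cubn and Amn. Each line gives the 250 bases before a start site on the strand of the gene, 5′ to 3′. Capitals mark GATA motifs, searched on both strands with the letters AGATAA, with the letters AGATAG, with the letters TGATAA or with the letters TGATAG.
Dab2, chr15:6299539-6299788, plus strand: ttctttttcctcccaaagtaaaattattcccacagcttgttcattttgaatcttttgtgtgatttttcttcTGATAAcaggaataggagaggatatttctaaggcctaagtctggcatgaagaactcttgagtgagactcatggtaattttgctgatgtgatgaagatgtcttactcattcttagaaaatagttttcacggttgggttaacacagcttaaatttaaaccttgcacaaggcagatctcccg
Dab2, chr15:6386498-6386747, plus strand: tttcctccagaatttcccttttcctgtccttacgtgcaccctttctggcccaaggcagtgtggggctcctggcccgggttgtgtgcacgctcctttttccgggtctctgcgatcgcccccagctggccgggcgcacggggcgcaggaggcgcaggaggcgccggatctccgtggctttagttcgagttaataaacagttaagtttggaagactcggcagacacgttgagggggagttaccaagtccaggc
Cubn, chr2:13491877-13492126, minus strand: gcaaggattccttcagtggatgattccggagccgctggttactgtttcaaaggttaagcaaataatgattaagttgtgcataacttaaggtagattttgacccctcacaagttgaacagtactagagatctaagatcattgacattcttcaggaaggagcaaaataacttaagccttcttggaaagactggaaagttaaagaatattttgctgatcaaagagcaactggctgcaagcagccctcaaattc
The first Dab2 window held 1 GATA motif, at position -179 from the start site, and the second Dab2 window and the Cubn window held 0. Over all 32851 promoters in the table, 26.5% held at least 1 such motif in the same 250 bases. A forkhead motif (TGTTTAC, or with the letters TATTTAC) was found in 5.76% of all promoters and a SOX motif (AACAAT) in 9.42%, both strands searched, and in 0 of the 10 windows of the members. GATA motifs stood in 3 of those 10 windows, 1 each for Foxa2, Hnf4a and Dab2. A match is a string of letters, not a bound site, and the arrays measured no binding.

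Gata6, the factor that starts the primitive endoderm programme, was read by 3 probe sets and passed the test on none of them. The brightest read 6.29 and 6.51 in the controls, 6.49 and 6.22 under siRNA #1 and 5.92 and 6.29 under siRNA #2. The groups overlapped with siRNA #1 and were narrowly apart with siRNA #2. The difference was -0.05 with siRNA #1 (SE 0.17, 95% confidence interval -0.41 to 0.31, limma adjusted p = 0.856) and -0.29 with siRNA #2 (SE 0.17, interval -0.66 to 0.07, limma adjusted p = 0.204). All 3 Gata6 probe sets had negative differences with each siRNA, from -0.36 to -0.05 with siRNA #1 and from -0.29 to -0.15 with siRNA #2.

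Gata4, which acts after Gata6, read 5.43 and 5.71 in the controls, 5.13 and 5.26 under siRNA #1 and 5.29 and 5.34 under siRNA #2. Both control arrays lay above all 4 Ncl siRNA arrays. Its differences were -0.38 with siRNA #1 (SE 0.17, interval -0.74 to -0.02, limma adjusted p = 0.0972) and -0.25 with siRNA #2 (SE 0.17, interval -0.62 to 0.11, limma adjusted p = 0.283), so neither passed. The other Gata4 probe set read between 5.10 and 5.41 in all 6 arrays, with the groups overlapping.

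Sox17 and Sox7 are related SOX factors of the primitive endoderm, and Sox17 also acts in definitive endoderm and endothelium. The brightest Sox17 probe set, whose name ends in _x_at, read 6.07 and 5.90 in the controls, 6.90 and 6.78 under siRNA #1 and 6.30 and 6.45 under siRNA #2. All 4 Ncl siRNA arrays were above both control arrays, and those of siRNA #1 were above those of siRNA #2. This probe set stands for the gene only through the Ncl siRNA arrays, since in the controls its mean of 5.99 was below the 6.23 of the other Sox17 probe set, so the choice favours a rise. It rose by 0.85 with siRNA #1 (SE 0.16, limma adjusted p = 1.52e-04), a 1.80-fold change of that probe set. With siRNA #2 the difference of 0.38 (SE 0.16) did not pass (limma adjusted p = 0.0586), although it passed without either siRNA #1 array (limma adjusted p = 0.0330 and 0.0326). The difference between the siRNAs was -0.47 (SE 0.16, interval -0.79 to -0.14, limma adjusted p = 0.0703), which passed without replicate 2 of siRNA #1 (-0.52, limma adjusted p = 0.0364).

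The other Sox17 probe set gave differences near 0. It read 6.28 and 6.18 in the controls, 6.25 and 6.26 under siRNA #1 and 6.35 and 6.24 under siRNA #2. The differences were 0.02 and 0.06, and the limma adjusted p over all probe sets was 0.938 with siRNA #1 and 0.830 with siRNA #2. The suffix _x_at marks probe sets that can share probe sequences with other transcripts, so the rise is that of 1 probe set and was not seen on the other. With the mean of both probe sets the difference with siRNA #1 was 0.44 (limma adjusted p = 0.00943). Endothelial markers went both ways. With siRNA #1, 3 of 10 rose (Pecam1, Tek and Sox18) and 5 fell, and with siRNA #2 3 rose and 6 fell. Their mean level was 6.30 and 6.49 in the control arrays and 6.06 to 6.20 in the others, and their part in the Sox17 reading was not tested.

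Sox7 read 6.11 and 6.24 in the controls, 6.20 and 6.24 under siRNA #1 and 6.34 and 6.32 under siRNA #2. Its differences of 0.05 with siRNA #1 (interval -0.28 to 0.38) and 0.16 with siRNA #2 (interval -0.17 to 0.48) did not pass, with limma adjusted p of 0.840 and 0.496. With siRNA #2 both arrays were above both control arrays, and with siRNA #1 the groups overlapped. The dimmer Sox7 probe set differed by 0.01 in each comparison with control.

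Foxa2, a forkhead factor of visceral and definitive endoderm and of lung epithelium, had 1 probe set. It read 5.61 and 5.72 in the controls, 5.61 and 5.61 under siRNA #1 and 5.55 and 5.55 under siRNA #2, a narrow range in which the siRNA #2 arrays were lowest. Its differences were -0.06 (interval -0.41 to 0.29) and -0.12 (interval -0.47 to 0.23), with limma adjusted p of 0.819 and 0.643.

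Foxa2, Gata6 and Sox17 are also expressed in lung, whose transcripts were in the control arrays. Of their 6 probe sets, 0 were lower in limma with either siRNA, against 12.5% and 15.5% of all probe sets. With siRNA #1, 1 was higher (of Sox17), against 14.6%, and with siRNA #2 0 were, against 13%. At an unadjusted p under 0.05, 1 of the 6 was lower with siRNA #1 and 0 with siRNA #2, and 1 was higher with each. The share of all probe sets at that threshold was not counted. In the same comparisons Sftpc, the surfactant protein of alveolar cells, differed by -5.83 and -5.69, while the lung factor Nkx2-1 (-0.30 and -0.24) did not pass. The part of lung transcripts in the Foxa2, Gata6 and Sox17 readings was not tested.

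Hnf4a, the nuclear receptor that drives transport and secretion genes in visceral endoderm and liver, read 6.02 and 6.22 in the controls, 5.37 and 5.79 under siRNA #1 and 5.83 and 5.96 under siRNA #2. The control arrays lay above the other 4. This probe set fell by 0.54 with siRNA #1 (SE 0.18, limma adjusted p = 0.0210), and the difference of -0.22 with siRNA #2 (SE 0.18, interval -0.60 to 0.15, limma adjusted p = 0.376) did not pass. The call with siRNA #1 was lost without replicate 2 of the control (-0.44, limma adjusted p = 0.141) or replicate 1 of siRNA #1 (-0.33, limma adjusted p = 0.177), and with the mean of all 4 probe sets (-0.37, limma adjusted p = 0.0726). The difference of 0.32 between the siRNAs did not pass (limma adjusted p = 0.290), and it passed without replicate 2 of siRNA #1 (0.53, limma adjusted p = 0.0449).

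The 4 Hnf4a probe sets did not give 1 answer. The one above was the brightest only through the controls, where its mean was 6.12 against 5.72 for the next, so the choice favours a fall. That next probe set was the brighter one under siRNA #1 (5.61 against 5.58) and under siRNA #2 (5.98 against 5.90), and its differences of -0.12 and 0.26 did not pass (limma adjusted p = 0.716 and 0.379 over all probe sets). Tested over all probe sets, 2 of 4 were lower with siRNA #1 and 1 of 4, a different one, with siRNA #2. The probe set lower with siRNA #2 read 4.17 and 3.70 in the control arrays and 3.36 and 3.47 with siRNA #2, below the lower quartile in all 6 arrays. The second of those lower with siRNA #1 was as dim, with 4.11 and 4.36 in the controls and 3.67 and 3.84 under siRNA #1, below the lower quartile in 5 of 6 arrays. Liver markers, another tissue of Hnf4a, had 2 of 9 lower and 1 of 9 higher with siRNA #1 and 0 of 9 called with siRNA #2 in limma. Of these 9, 4 read below the lower quartile in all 6 arrays, and their part was not tested.

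**Figure D2:**
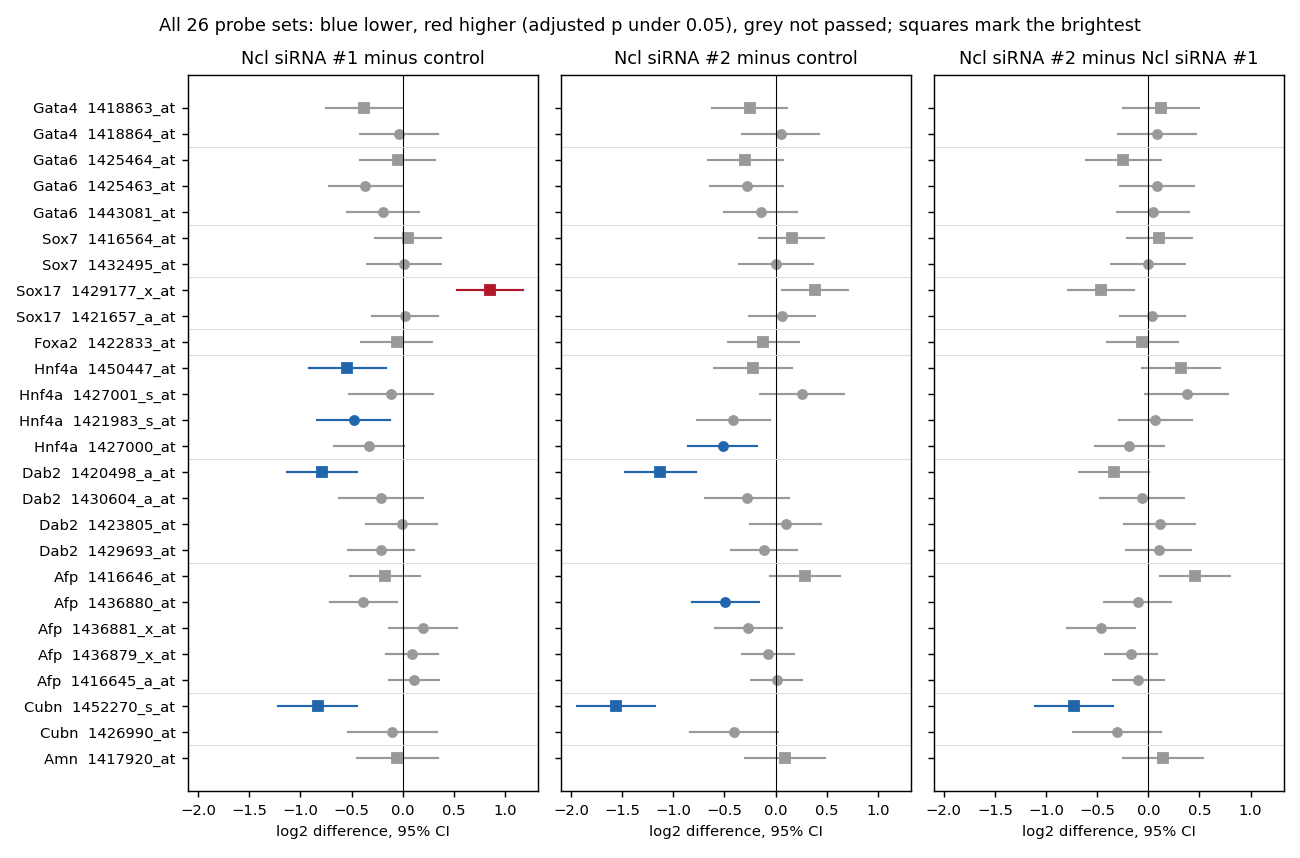
Log2 differences (horizontal axis) of all 26 probe sets with 95% confidence intervals from the limma fit over all probe sets, in the 3 comparisons. Squares mark the brightest probe set of each gene, and blue (lower) and red (higher) mark an adjusted p under 0.05. The lower Dab2 and Cubn readings come from the brightest probe set of each gene, and most intervals include 0.

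Dab2, an adaptor protein that links cargo receptors to clathrin and is needed for endocytosis in visceral endoderm, fell with each siRNA. Its brightest probe set read 7.15 and 7.48 in the controls, 6.69 and 6.37 under siRNA #1 and 6.27 and 6.11 under siRNA #2. The 3 groups did not overlap. Dab2 fell by 0.79 with siRNA #1 (SE 0.16, limma adjusted p = 5.07e-04), to 57.9% of control, and fell by 1.13 with siRNA #2 (SE 0.16, limma adjusted p = 6.69e-06), to 45.8%. The siRNAs differed by -0.34 (SE 0.16, interval -0.68 to 0.00), which did not pass (limma adjusted p = 0.212) but passed without replicate 2 of siRNA #1 (-0.50, limma adjusted p = 0.0474). The other 3 Dab2 probe sets read between 3.82 and 5.03 and none of them passed, and with the mean of all 4 probe sets the differences were -0.31 (limma adjusted p = 0.0985) and -0.35 (limma adjusted p = 0.0572).

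Cubn encodes cubilin, the receptor that takes up vitamin B12 bound to intrinsic factor and many plasma proteins, in visceral endoderm as in the kidney tubule. The brightest probe set read 6.57 and 6.91 in the controls, 6.10 and 5.72 under siRNA #1 and 5.11 and 5.26 under siRNA #2. The 3 groups were apart, with siRNA #2 lowest. Cubn fell by 0.83 with siRNA #1 (SE 0.18, limma adjusted p = 8.22e-04), to 56.2% of control, and fell by 1.56 with siRNA #2 (SE 0.18, limma adjusted p = 3.20e-07), to 33.9%.

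Cubn was also the member that differed between the siRNAs. It was lower with siRNA #2 than with siRNA #1, with a difference of -0.73 (SE 0.18, interval -1.10 to -0.35, limma adjusted p = 0.0153). This call was lost without replicate 1 of siRNA #1 (-0.54, limma adjusted p = 0.153), replicate 1 of siRNA #2 (-0.65, limma adjusted p = 0.200) or replicate 2 of siRNA #2 (-0.80, limma adjusted p = 0.0785). It was also lost without the variance trend (limma adjusted p = 0.117), with the mean of both probe sets (-0.52, limma adjusted p = 0.133) and without _s_at probe sets (-0.31, limma adjusted p = 0.356). The name of the brightest Cubn probe set ends in _s_at, a suffix for probes shared by several transcripts. The second Cubn probe set read 4.40 and 4.99 in the control arrays and 4.26 to 4.79 in the others, and its differences of -0.10 (limma adjusted p = 0.767 over all probe sets) and -0.41 (limma adjusted p = 0.162) did not pass. With the mean of both probe sets Cubn differed by -0.47 with siRNA #1 (limma adjusted p = 0.0663) and by -0.98 with siRNA #2 (limma adjusted p = 0.00118).

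Amn encodes amnionless, the membrane anchor that carries cubilin to the cell surface. It read 6.58 and 6.42 in the controls, 6.74 and 6.15 under siRNA #1 and 6.45 and 6.73 under siRNA #2, so the groups overlapped throughout. Its differences were -0.05 (interval -0.43 to 0.33, limma adjusted p = 0.855) and 0.09 (interval -0.29 to 0.47, limma adjusted p = 0.754). Lrp2, which encodes megalin, the large endocytic receptor that works with cubilin, is not a member but belongs to the same uptake complex. It read 7.29 and 7.06 in the controls, 8.85 and 8.81 under siRNA #1 and 8.56 and 8.60 under siRNA #2, and rose by 1.66 (SE 0.11, limma adjusted p = 4.83e-11) and 1.40 (SE 0.11, limma adjusted p = 5.59e-10). Of its 3 probe sets, 2 rose with each siRNA. The third Lrp2 probe set differed by -0.28 with each siRNA and did not pass. On the brightest probe sets the genes of this uptake pathway therefore went different ways, with Cubn and Dab2 down, Lrp2 up and Amn not past the threshold. The falls were on 1 of 4 Dab2 and 1 of 2 Cubn probe sets.

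Other cell types that can express Dab2 or Cubn were read in the same arrays. Kidney tubule genes had a mean of 4.84 and 4.83 in the control arrays and 4.53 to 4.89 in the others, with 1 of 10 lower with each siRNA (Slc34a1). Intestinal genes averaged 5.21 and 5.16 against 5.07 to 5.17, with 0 of 9 called with siRNA #1 and 1 of 9 lower with siRNA #2. Macrophage genes averaged 5.24 and 5.22 against 4.99 to 5.14, with 2 of 10 lower and 1 of 10 higher with each siRNA. The 2 lower macrophage genes were C1qa and Chil3. In all 6 arrays 3 of the kidney tubule, 2 of the intestinal and 2 of the macrophage genes read below the lower quartile. Lung and heart muscle genes fell as given above, in the same arrays as Dab2 and Cubn. Of 10 endothelial genes, 5 were lower and 3 higher with siRNA #1, and 6 were lower and 3 higher with siRNA #2. The part of the lung, heart muscle and endothelial genes in the falls of Dab2 and Cubn was not tested. Between the siRNAs, where Cubn differed, 2 of 14 lung genes were lower with siRNA #2 (Sftpd and Napsa), 1 of 10 heart muscle genes was (Myh6), and 0 of 10 kidney tubule genes were called in limma. The stem cell markers, lower with siRNA #2 as given above, moved in the same comparison, and their part was not tested.

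**Figure D3:**
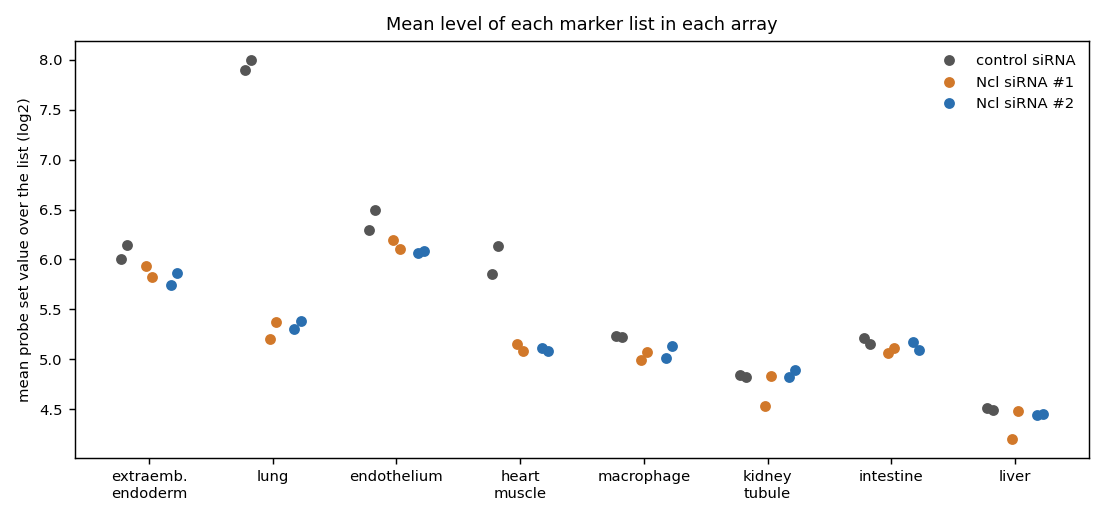
Mean log2 value (vertical axis) of the 10 extraembryonic endoderm genes and of 7 lists of marker genes of other tissues in each of the 6 arrays, coloured by siRNA. The lung list separates the control arrays (7.90 and 8.00) from the Ncl siRNA arrays (5.20 to 5.38), the heart list does so to a lesser degree, and the kidney, intestine and liver lists differ little.

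Afp, alpha-fetoprotein, the main secreted protein of the visceral endoderm and fetal liver, was close to the floor. Its brightest probe set read 4.26 and 4.30 in the controls, 4.14 and 4.08 under siRNA #1 and 4.44 and 4.69 under siRNA #2. The siRNA #1 arrays were lowest and the siRNA #2 arrays highest. The differences of -0.17 (interval -0.51 to 0.17, limma adjusted p = 0.447) and 0.29 (interval -0.05 to 0.62, limma adjusted p = 0.182) did not pass, nor did the 0.46 between the siRNAs (limma adjusted p = 0.0833). The other 4 Afp probe sets read between 2.88 and 4.11, and 1 of them was lower with siRNA #2 at values of 3.47 and 3.40 (difference -0.49, limma adjusted p = 0.0236 over all probe sets).

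Counted by whether the arrays of the groups overlapped, 5 members were lower and 1 higher throughout with siRNA #1, where 34.2% and 29.9% of all genes were. With siRNA #2 6 were lower and 3 higher, against 38.6% and 31% of all genes, and between the siRNAs 4 were lower and 4 higher, against 33.3% and 20.9%. Over the 26 probe sets, 4 were called lower and 1 higher with siRNA #1, against 12.5% and 14.6% of all 45037 probe sets tested, and 4 lower and 0 higher with siRNA #2, against 15.5% and 13%. Between the siRNAs 1 was lower and 0 higher, against 1.95% and 0.959%. In either direction the calls over all probe sets came to 27.1%, 28.5% and 2.91% in these comparisons. Groups of arrays that did not overlap were found for 10 lower and 2 higher of the 26 with siRNA #1 (32.4% and 26.3% of all probe sets), for 14 and 4 with siRNA #2 (35% and 28.8%), and for 9 and 5 between the siRNAs (26.9% and 21.3%). At an unadjusted p under 0.05, 8, 6 and 4 of the 26 probe sets differed in these 3 comparisons. The share of all probe sets at that threshold was not counted, so these numbers are no result about the members. The 5 calls with siRNA #1 numbered 3 without either siRNA #2 array, the 4 with siRNA #2 numbered 2 without replicate 1 of siRNA #2, and the call between the siRNAs was lost without either siRNA #2 array and joined by another without replicate 2 of siRNA #1.

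Other genes of the lineage were read from 4 lists with 64 measured genes of 68, of which Tdgf1 is also a stem cell marker and Alb a liver marker in the lists above. With siRNA #1, 23 were higher, 13 lower and 28 not past the threshold, and with siRNA #2 the counts were 24, 15 and 25. Between the siRNAs 9 were higher with siRNA #2, 10 lower and 45 not past it. The background was 20.2% higher and 17.3% lower over all genes with siRNA #1, 17.7% and 21.7% with siRNA #2, and 2.3% and 6.18% between the siRNAs. The 4 lists were written with earlier results of these data known. Their counts and medians, here and list by list below, are therefore no result about the lineage genes as a group. The median difference was 0.09 with siRNA #1 and 0.06 with siRNA #2. Of the 19 calls between the siRNAs, 10 were made without replicate 1 of siRNA #2 and 3 in a limma fit without the variance trend.

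Signals and receptors that set up the primitive endoderm moved both ways, with 5 of 16 higher and 4 lower with siRNA #1 and 7 higher and 5 lower with siRNA #2. Fgf4, the ligand that induces primitive endoderm, read 11.09 and 11.11 in the controls, 10.09 and 9.96 under siRNA #1 and 9.58 and 9.73 under siRNA #2. It fell by 1.07 with siRNA #1 (SE 0.07, limma adjusted p = 9.43e-11) and fell by 1.45 with siRNA #2 (SE 0.07, limma adjusted p = 5.57e-13), on 4 of 4 probe sets. Its receptor genes Fgfr1 and Fgfr2 rose with each siRNA, by 0.67 and 0.89 for Fgfr1 and by 1.25 and 0.95 for Fgfr2. Pdgfra, a receptor that marks primitive endoderm cells and also lung mesenchyme, read 6.43 and 6.44 in the controls, 5.68 and 5.23 under siRNA #1 and 5.14 and 5.20 under siRNA #2. It fell by 0.98 (SE 0.18, limma adjusted p = 1.37e-04) and fell by 1.27 (SE 0.18, limma adjusted p = 4.95e-06), on 1 of 3 probe sets. Lefty1, a Nodal inhibitor also made by the anterior visceral endoderm, fell by 0.62 and fell by 1.56 (SE 0.07), and was lower with siRNA #2 than with siRNA #1 with a difference of -0.94 (limma adjusted p = 9.03e-09).

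Among 11 other transcription factors, 6 were higher and 2 lower with siRNA #1, and 5 higher and 2 lower with siRNA #2. Eomes, which acts in visceral endoderm and in trophoblast, rose by 2.12 and 2.06 (SE 0.11), from 6.82 and 7.10 in the control arrays to between 9.01 and 9.16. Klf6 rose by 2.02 and 2.25 (SE 0.06), on 5 of 5 probe sets. Cited1, a co-activator, rose by 0.97 and 0.74 (SE 0.20), the latter lost without replicate 1 of siRNA #2 (limma adjusted p = 0.0509), and Hhex, of the anterior visceral endoderm, by 0.68 and 0.59. Otx2, also a factor of the epiblast, divided the siRNAs. It read 9.56 and 9.57 in the controls, 10.73 and 10.74 under siRNA #1 and 9.34 and 9.38 under siRNA #2, and differed between the siRNAs by -1.37 (SE 0.07, limma adjusted p = 6.41e-11). Its lower reading with siRNA #2 (-0.20, limma adjusted p = 0.0255) was lost without replicate 1 or 2 of the control (limma adjusted p = 0.0869 and 0.120), without replicate 1 or 2 of siRNA #2 (limma adjusted p = 0.201 and 0.0988) and without the variance trend (limma adjusted p = 0.0958).

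Among basement membrane and parietal endoderm genes, 9 of 16 were higher and 4 lower with each siRNA, with a median difference of 0.68 and 0.65. Sparc, a matrix protein abundant in parietal endoderm, read 10.09 and 10.23 in the controls, 12.14 and 12.10 under siRNA #1 and 11.93 and 12.08 under siRNA #2. It rose by 1.96 and 1.84 (SE 0.06), on 2 of 3 probe sets. Serpinh1, the collagen chaperone, rose by 2.04 and 1.89 (SE 0.10), and Lamb1, a laminin chain, by 1.21 and 1.40. Col4a2, a type IV collagen chain, rose by 0.91 and 1.77 (SE 0.12) and was higher with siRNA #2 than with siRNA #1 (0.86, limma adjusted p = 1.05e-04, or 0.0585 without the variance trend), as was Plat, tissue plasminogen activator, which rose by 0.91 and 1.72. Srgn, serglycin, a proteoglycan of parietal endoderm and of blood cells, fell by 1.21 and fell by 1.88 (SE 0.17), and Thbd, thrombomodulin, fell by 1.47 and fell by 0.97. Many of these genes are made by other adherent cells too, so the list is not one of parietal endoderm alone. The part of the lung and heart muscle transcripts in the control arrays in the lower readings was not tested.

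Of the visceral endoderm genes of transport and secretion, 3 of 21 were higher, 3 lower and 15 not past the threshold with siRNA #1, and 3, 4 and 14 with siRNA #2. Ttr, Apoa1, Apoa2, Apob and Alb, secreted proteins made with Afp in visceral endoderm, were among those that did not pass with either siRNA. Of the 21 genes, 4 read below the lower quartile in all 6 arrays and 8 above the array median in all 6. Apoe, an apolipoprotein with wide expression, read 11.98 and 12.11 in the control arrays and 10.73 to 11.06 in the others, and fell by 1.15 and fell by 1.03 (SE 0.08). Spink1, a protease inhibitor, fell by 0.49 and fell by 0.90 (SE 0.06), while Cited2 rose by 0.51 and 0.88 (SE 0.06). Tmprss2, a membrane protease, read 4.90 and 4.95 in the controls, 4.77 and 5.17 under siRNA #1 and 5.97 and 5.82 under siRNA #2. It rose by 0.97 with siRNA #2 (SE 0.18, limma adjusted p = 1.38e-04). Of its 4 probe sets, 2 rose with siRNA #2, with differences from -0.08 to 1.06.

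**Figure D4:**
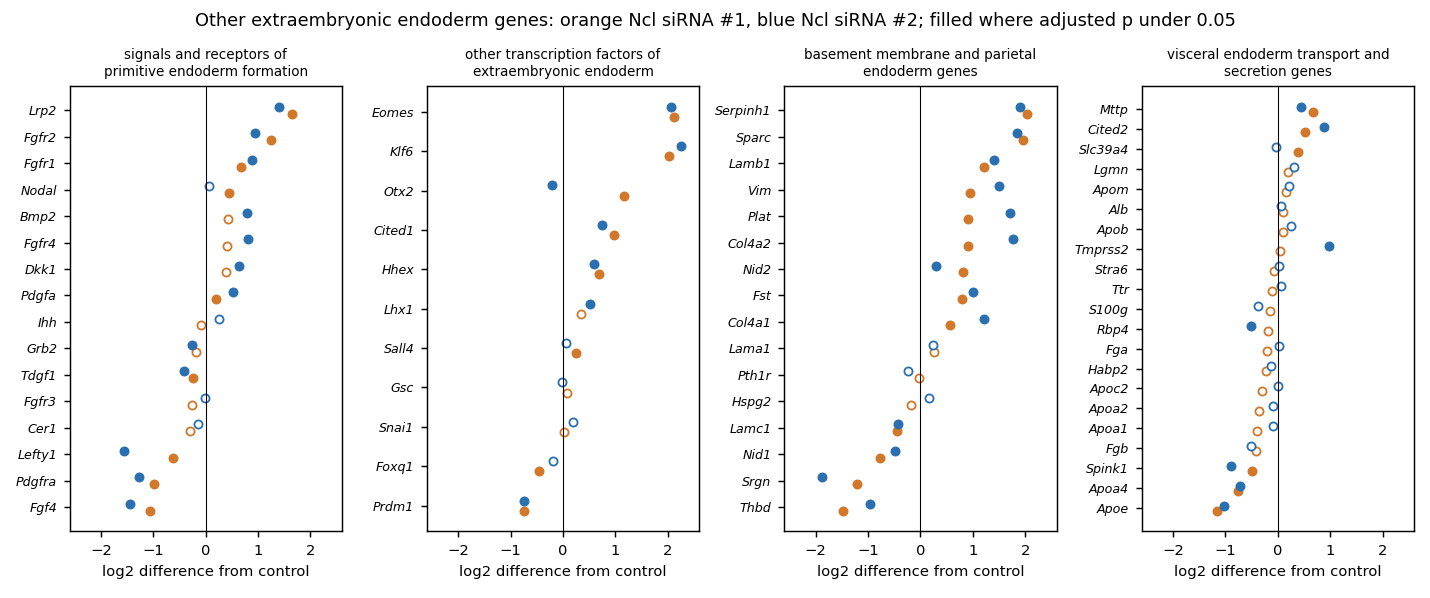
Log2 difference from control (horizontal axis) of the 64 other extraembryonic endoderm genes in 4 lists, orange for Ncl siRNA #1 and blue for Ncl siRNA #2, filled where the limma adjusted p was under 0.05. Serpinh1 and Sparc lead the basement membrane list, Fgf4, Pdgfra and Lefty1 are at the low end of the signals, and most visceral endoderm genes lie near 0.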

How the data were processed

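Total RNA of 6 samples was extracted with a Qiagen kit and labelled with biotin by an Affymetrix kit, per the labels. The authors deposited log2 values. Their medians lay between 5.73 and 5.79, as after normalization between arrays, and the method is not given in the sources used here. Signal near the floor limits precision, as does the number of arrays. A GEO platform annotation gave 1 symbol for 34945 probe sets, several for 932 and none for 9160. The 64 control probe sets were left out.

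In limma 3.58.1 (R 4.3.3), group means were estimated from all 6 arrays together with a variance trend, by gene (18193, brightest probe set) and by probe set (45037). Residual degrees of freedom were 3. The procedure was tested on simulated data. The members and lists were chosen with earlier results of these data known. Named genes outside the members were, per list, up to 4 with the largest called differences; others were named after their values were seen. Alternatives were other scalings, probe set rules, variance and sample choices, a replicate block and leaving out each array. Promoters come from RefSeq.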

Additional observations from a re-analysis of the deposited data

Results flagged for a closer look

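The effects of the siRNAs differed for 1 of the 26 probe sets, the brightest of Cubn, by -0.73 between siRNA #2 and siRNA #1 (limma adjusted p = 0.0407 over all probe sets, where 2.91% of probe sets were called). Both siRNA #2 arrays (5.11 and 5.26) read below both siRNA #1 arrays (6.10 and 5.72). A count of 1 in 26 is near that share and is no result about the members as a group. By gene, the call was lost without the variance trend (limma adjusted p = 0.117) and without _s_at probe sets (limma adjusted p = 0.356). Its other limits are given with Cubn above. No group held enough arrays for a check of outlying samples.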

How the results depend on the processing

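Some alternatives change only the spread and the p-value, so the direction could not change there. These were variances without a trend, only the arrays compared, the replicate block and the fit over all probe sets. Leaving out an array outside the comparison was another. Of 420 values of the members under alternatives, 386 kept their direction and side of the threshold, 15 fell below it, 8 rose above it and 11 changed sign. The sign changes were past the threshold in neither fit. Those by setting were Sox7 with siRNA #1 (-0.023 with quantile normalization), Sox17 between the siRNAs without _x_at and _s_at probe sets (0.040), and Afp with siRNA #2 and between the siRNAs with the mean of all probe sets (-0.11 and -0.075). Leaving out an array gave ranges across 0 for Gata6 with siRNA #1 (-0.18 to 0.085), Sox7 with siRNA #1 (-0.014 to 0.11), and Amn with siRNA #1 (-0.34 to 0.24), with siRNA #2 (-0.051 to 0.23) and between them (-0.15 to 0.44). Other named genes gave 9 sign changes in 840 values, none past the threshold. Between the siRNAs these were Pdgfra and Ncl with the mean of all probe sets (0.021 and 0.044), Eomes with quantile normalization (0.036), and ranges without an array for Eomes (-0.14 to 0.0079), Cited1 (-0.57 to 0.097), Apoe (-0.042 to 0.29) and Ncl (-0.032 to 0.019). With siRNA #1 the range for Tmprss2 was -0.15 to 0.25.

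The members called numbered 4 with siRNA #1, 2 with siRNA #2 and 1 between them. With the mean of all probe sets these were 1, 1 and 0 (Sox17, then Cubn), and without _x_at and _s_at probe sets 2, 1 and 0 (Hnf4a and Dab2, then Dab2), since another probe set then stands for Sox17 and Cubn. With variances without a trend and with only the arrays compared, 3 were called with siRNA #2 (Sox17 added). Between the siRNAs, 2 were called with arrays centred on their medians and 0 with variances without a trend. Leaving out an array gave 3 to 4, 2 to 3 and 0 to 4. The 4, without replicate 2 of siRNA #1, were Sox17, Hnf4a, Dab2 and Cubn. Leaving out genes below the median signal removed all 10 members.

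Member probe sets called numbered 5, 4 and 1. Variances without a trend gave 3, 2 and 0, and leaving out an array gave 3 to 6, 2 to 5 and 0 to 2. Other lineage genes called between the siRNAs numbered 19, with 12 by the mean of all probe sets, 3 with variances without a trend and 10 to 22 without an array. The cause of these changes was not tested. With the replicate block the members called were 4, 2 and 1. The replicate numbers do not pair the samples in the labels, and deviations of same-numbered arrays correlated at -0.02, -0.00 and 0.01. The arrays per group (2) and the dim signal of all members limit what could be seen.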
